A study of Mus musculus with 12 samples.

Results

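The miR-132 and miR-212 cluster is a pair of microRNAs (miRNAs) cut from 1 primary transcript. Its 2 probes, mmu-miR-132 and mmu-miR-212, were taken by name from the 566 mouse miRNA probes of a NanoString nCounter panel. The assay captures each target with a fluorescent barcode and counts the barcodes 1 by 1, with no amplification step. The RNA came from mHypoE-46, an immortalised, clonal line of mouse embryonic hypothalamic neurons, grown in medium with fetal bovine serum. The line is labelled as expressing the appetite-raising peptides of NPY/AgRP neurons. Being 1 clone, the line stands for a single cell of origin, and the serum supplies growth factors to the vehicle cells as well. Cells received phosphate buffered saline (vehicle) or 100 nM insulin and were harvested after 4 h or 24 h, times the labels place before and after insulin resistance develops. Each of the 4 groups held 3 libraries, 12 in all, from 3 independent repeats per the design text.

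Transcription of this cluster is driven by CREB, a factor switched on by calcium and cAMP signals, so that synaptic activity, neurotrophins and, in the suprachiasmatic nucleus of the hypothalamus, light raise both miRNAs in neurons. In neurons, miR-132 represses the message of the GTPase-activating protein p250GAP, and it promotes the growth of dendrites. Its partner miR-212 shares the seed, the stretch that pairs with target messages, and so can read many of the same targets. Insulin signals mainly through the PI3K-Akt and MAP kinase pathways, and the latter can also reach CREB.

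The mature sequences are shown because they decide how far the products of the cluster overlap. They are RefSeq sequences on GRCm38.p6, written 5′ to 3′, with the seed (bases 2 to 8) in capitals.
mmu-miR-132-3p: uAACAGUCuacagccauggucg
mmu-miR-212-3p: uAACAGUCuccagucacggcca
mmu-miR-132-5p: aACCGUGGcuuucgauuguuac
mmu-miR-212-5p: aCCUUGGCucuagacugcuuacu
The 3p arms share the seed AACAGUC and were identical at 17 of 22 positions. Counted from 1 at the 5′ end, with the base of miR-132-3p first, they differ at A10C, C14U, U17C, U20C and G22A, all outside the seed. The 5p arms have different seeds. Of 1679 mature mouse names in the RefSeq table, these 2 alone carry the seed AACAGUC, and among the 437 panel probes whose names matched that table, miR-132 and miR-212 alone do. The probe names give no arm. In older miRBase usage these names without a suffix meant the 3p arms, and the probe sequences were not used here.

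The hairpins are shown to place both products on the transcript, with the 3p arm in capitals.
Mir212 hairpin: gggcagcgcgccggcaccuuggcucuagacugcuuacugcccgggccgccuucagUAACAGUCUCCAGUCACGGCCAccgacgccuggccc
Mir132 hairpin: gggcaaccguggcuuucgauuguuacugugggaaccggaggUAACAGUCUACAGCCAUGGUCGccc
Both lie on the plus strand of mouse chromosome 11, Mir212 at chr11:75173388-75173478 and Mir132 at chr11:75173682-75173747. Only 203 bases separate them, with Mir212 first. No other RefSeq gene of that table overlaps the cluster. The nearest neighbours are Hic1, a transcriptional repressor gene whose near edge lies 3132 bases before it, and Ovca2, whose near edge lies 2195 bases after it.

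Each count was set against the negative controls of its own library, 8 probes without a target. The threshold was their mean plus 2 SD. Total counts of mouse miRNAs ran from 142158 to 379809 per library and the threshold from 38.9 to 124 counts. The smallest library was vehicle 4 h replicate 1 and the largest insulin 24 h replicate 2. The threshold was lowest in insulin 24 h replicate 1, whose total of 142491 was close to the smallest. The 4 h libraries occupied lanes 1 to 6 of the cartridge and the 24 h libraries lanes 7 to 12, so time and lane block cannot be told apart. Of 7 neuronal markers, miR-9 passed the threshold everywhere (12 libraries), miR-218 in 10, miR-128 in 8 and miR-7a in 5. The other markers, miR-124, miR-137 and miR-138, passed in 0, so miR-124, a defining miRNA of mature neurons, was not detectable at this depth.

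Counts of miR-212 lay below the threshold in 12 of 12 libraries, and below the mean of the negative controls in each. They were 26, 31 and 19 in vehicle at 4 h, 29, 14 and 16 in insulin at 4 h, 28, 20 and 15 in vehicle at 24 h, and 17, 16 and 15 in insulin at 24 h (replicates 1, 2 and 3). The groups overlapped, and the highest count, 31 in vehicle 4 h replicate 2, met a threshold of 67.0. In each library, only 0 to 2 of the 8 negative controls lay below miR-212. No level above background can be read for miR-212 at this depth, and it did not meet the count filter of the edgeR tests given for miR-132. Its correlation with miR-132, given below, therefore sets background counts against miR-132. Fitted among all 566 probes, its log2 fold change of insulin over vehicle was -0.43 (standard error, SE, 0.37) at 4 h and -0.36 (SE 0.40) at 24 h, differences between counts at background, with edgeR adjusted p of 1.00 and 0.999. Of its shared transcript, only miR-132 gave counts above the threshold.

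Counts of miR-132 were low but lay above every negative control in 12 of 12 libraries. They were 75, 71 and 72 in vehicle at 4 h and 103, 98 and 65 in insulin at 4 h. At 24 h they were 78, 117 and 100 in vehicle and 48, 219 and 160 in insulin. The insulin group at 24 h therefore held both the lowest and the highest count of the series. The threshold was passed in 10 of 12 libraries: 2 of 3 in vehicle at 4 h, 3 of 3 in insulin at 4 h, 2 of 3 in vehicle at 24 h and 3 of 3 in insulin at 24 h. The exceptions were vehicle 4 h replicate 1, where 75 counts met a threshold of 76.9, and vehicle 24 h replicate 2, where 117 met 118. With 3 SD in place of 2, it was passed in 6 of 12 libraries. These were 2 insulin libraries at 4 h, and 1 vehicle and 3 insulin libraries at 24 h. The number of all miRNAs past the 2 SD threshold also differed between libraries (replicates 1, 2 and 3). It was 129, 174 and 160 in vehicle and 151, 184 and 195 in insulin at 4 h. At 24 h it was 201, 118 and 142 in vehicle and 169, 140 and 130 in insulin. At 3 SD the number of all miRNAs was not counted, so the split of miR-132 there has no share over all miRNAs beside it. Whether treatment had a part in the detection of miR-132 was not tested.

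The margin over background was small. As a ratio to the mean of the negative controls, miR-132 ran from 1.86 to 3.54, with a mean of 1.97 ± 0.09 (SD, n = 3) in vehicle at 4 h and 2.37 ± 0.27 in insulin. At 24 h the mean ratio was 2.13 ± 0.15 in vehicle and 2.79 ± 0.82 in insulin. The exact 95% Poisson interval of the count, which covers counting error only, lay wholly above the threshold in 4 of 12 libraries. These were insulin 4 h replicate 2, vehicle 24 h replicate 1 and insulin 24 h replicates 2 and 3. For insulin 24 h replicate 1 the interval of 35.4 to 63.6 spanned the threshold of 38.9.

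**Figure D1:**
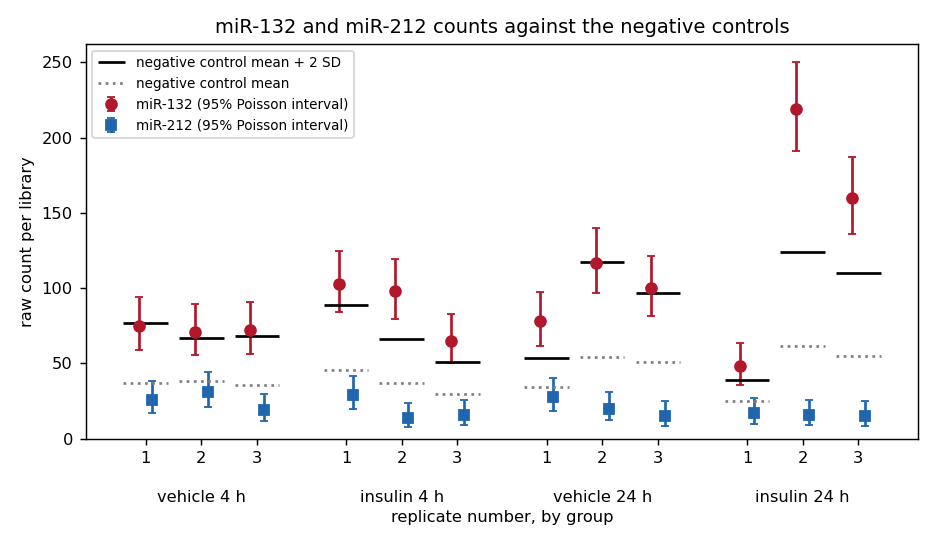
Raw counts of miR-132 (circles) and miR-212 (squares) in each library, with exact 95% Poisson intervals, against the mean (dotted) and the mean plus 2 SD (solid) of that library's 8 negative controls. All 12 miR-212 counts sit under the dotted lines, and the interval of miR-132 lies wholly above the solid line in 4 libraries, 1 of them vehicle at 24 h.

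Scaled for depth as CPM, the count over the TMM-scaled total of the 195 tested miRNAs on the usual CPM base, miR-132 was at 475, 410 and 369 CPM in vehicle at 4 h and 514, 482 and 388 CPM in insulin at 4 h. At 24 h it was at 475, 491 and 446 CPM in vehicle and 424, 777 and 738 CPM in insulin. In insulin at 24 h, 2 of 3 libraries were above all 10 others, and replicate 1 was below all 3 vehicle libraries of that time. The group means ran, from low to high, from vehicle at 4 h (418 ± 53.2 CPM, SD, n = 3) through insulin at 4 h (461 ± 65.6 CPM) and vehicle at 24 h (471 ± 22.8 CPM) to insulin at 24 h (646 ± 193 CPM). Neighbours in this order overlapped, and no step between them exceeded the larger SD of the groups it joins.

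**Figure D2:**
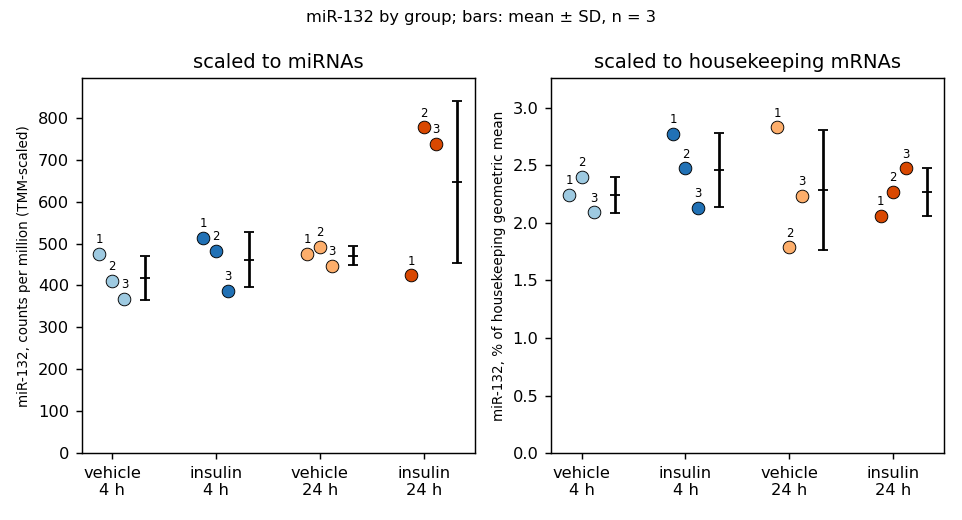
Level of miR-132 in each library by group, as TMM-scaled CPM (left) and as a percentage of the geometric mean of 4 housekeeping mRNAs in the same library (right); digits are replicate numbers, bars the mean ± SD of 3. On the left, 2 insulin libraries at 24 h stand at 777 and 738 CPM, and on the right the 4 group means lie between 2.24% and 2.46%.

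The comparison at 4 h asks whether insulin moves the cluster before resistance develops. Insulin and vehicle libraries overlapped, since 388 CPM in insulin lay below 475 and 410 CPM in vehicle. The fitted log2 fold change of miR-132 was 0.15 (SE 0.21, 95% interval -0.31 to 0.61), a 1.11-fold ratio with an interval of 0.81 to 1.52. It did not pass the test (edgeR quasi-likelihood F test, adjusted p = 0.971 over 195 miRNAs), in a comparison where 0% of the 195 were called and 3 lay under 0.05 before adjustment. No miRNA was called by DESeq2 or by limma on the authors' signals either (0 each). The value ran from 0.02 with scaling to positive controls to 0.36 with scaling to viral probes.

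At 24 h, the time tied to insulin resistance, miR-132 had the third smallest p of the 195 miRNAs with TMM scaling, without passing the test. The fitted log2 difference, insulin over vehicle, was 0.49 (SE 0.20, interval 0.05 to 0.92), a 1.40-fold ratio with an interval of 1.04 to 1.90. The unadjusted p was 0.0307 and the adjusted p 0.962 in edgeR, where 0% of 195 miRNAs were called and 4 lay under 0.05 before adjustment. DESeq2 and limma called 0 as well. For miR-132 the unadjusted p was 0.0387 by the DESeq2 Wald test and 0.268 by limma on the authors' signals (0.33, SE 0.28). Over the scalings in edgeR it ran from 0.0149 (viral probes) to 0.950 (housekeeping mRNAs), with 0.160 for the 100 most abundant probes. The 3 pairs of the same number did not run one way: the difference was -0.16 for replicate 1, 0.65 for replicate 2 and 0.71 for replicate 3 on the log2 CPM scale. Without insulin 24 h replicate 1 the fitted value was 0.69 (adjusted p = 0.136 in edgeR; 0.136 to 1.00 over all alternatives), and without insulin 24 h replicate 2 it was 0.34.

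Some housekeeping mRNAs differed with miR-132 at this time. The geometric mean of Actb, B2m, Gapdh and Rpl19 on the miRNA scale was 0.40 higher in insulin than in vehicle at 24 h (difference of log2 means), as was miR-132 itself, also at 0.40. The mRNAs were unequal in this: the difference was 0.78 for Rpl19 and 0.56 for Actb, but 0.13 for B2m and 0.12 for Gapdh. The B2m and Gapdh values average unlike insulin libraries. In replicate 1 their raw counts, not scaled for depth, were the lowest of the series (396 and 891). Gapdh stood at 6312 and 4622 in insulin replicates 2 and 3, and at 1905, 4481 and 3014 in vehicle at 24 h. For B2m these counts were 2634 and 1611, and 743, 1768 and 1238. At 4 h the differences were 0.01 for the geometric mean and 0.14 for miR-132. The housekeeping level was 34201 and 29856 on the CPM scale in insulin 24 h replicates 2 and 3, the libraries with high miR-132, and between 16788 and 27490 in the 10 others. Scaled to housekeeping mRNAs, the 24 h log2 fold change of miR-132 was 0.01 (SE 0.22), and that scaling shifted the median of all 195 miRNAs to -0.33, from 0.06 with TMM. Relative to the median, miR-132 was 0.34 higher with housekeeping scaling and 0.43 higher with TMM. A scaling shifts all miRNAs of a library together, so taking off the median largely undoes it. The likeness of these 2 values is therefore built in, and cannot show whether the response holds under housekeeping scaling. As a percentage of the housekeeping mean, miR-132 was at 2.24% ± 0.15 (SD, n = 3) in vehicle and 2.46% ± 0.32 in insulin at 4 h, and at 2.28% ± 0.52 and 2.27% ± 0.21 at 24 h. The part of the housekeeping level in the result was not tested.

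Background differed less between the 24 h groups. At that time the negative control mean on the miRNA scale was 0.06 higher in insulin (difference of log2 means), and the 33 viral probes, whose targets uninfected mouse cells lack, were 0.04 lower in their sum (-0.04). Of these probes, 1 to 5 lay above the 2 SD threshold in each library, and the sum and the viral scaling include them. Scaled to the negative controls, the 24 h log2 fold change of miR-132 was 0.42 (SE 0.21), and scaled to the viral probes 0.49 (SE 0.18). With the negative control mean subtracted from each count, miR-132 was at 265, 264 and 220 CPM in vehicle and 203, 557 and 484 CPM in insulin at 24 h. The log2 fold change was then 0.75 (SE 0.36, adjusted p = 0.986 in edgeR). Replicate 1 of insulin again lay below all 3 vehicle libraries, and replicates 2 and 3 above them.

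**Figure D3:**
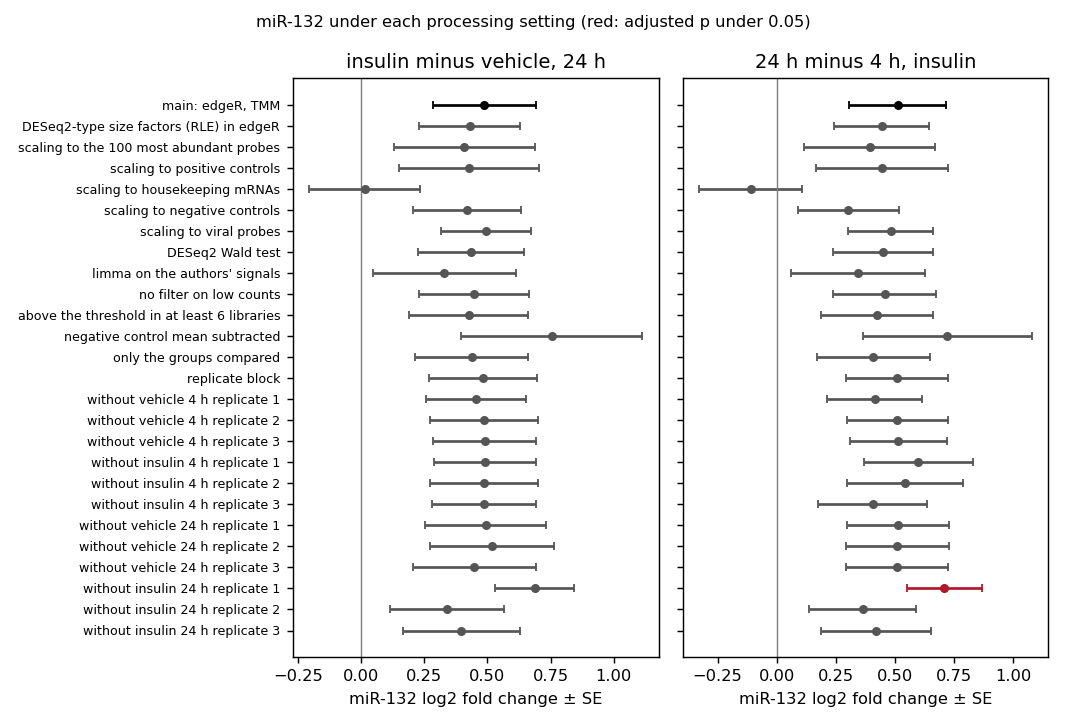
Fitted log2 fold change of miR-132 (points, ± SE) for insulin minus vehicle at 24 h (left) and 24 h minus 4 h in insulin (right) under each setting, with red where the adjusted p is under 0.05. Values lie near 0 only with scaling to housekeeping mRNAs (0.01 and -0.11), and the sole red point leaves out insulin 24 h replicate 1.

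The response at 24 h was compared with that at 4 h to ask whether prolonged exposure changes it. The difference of the 2 log2 fold changes was 0.34 (SE 0.30, interval -0.29 to 0.97; adjusted p = 0.991 in edgeR, with 0% of 195 called and 0 under 0.05 before adjustment). By DESeq2 and limma the number called was also 0. With housekeeping scaling it was -0.12 (SE 0.31). Averaged over both times, insulin exceeded vehicle by 0.32 (SE 0.15, interval 0.00 to 0.63; unadjusted p = 0.0477, adjusted p = 0.999 in edgeR, with 0% called and 6 under 0.05 before adjustment, and 0 called by DESeq2 and limma). With housekeeping scaling this value was 0.07 (SE 0.16). An exact permutation test of treatment within each time, two-sided over 400 arrangements and able to reach 0.005, gave a mean difference of 0.27 in log2 CPM with p = 0.15. With housekeeping scaling the exact permutation test gave 0.07 with p = 0.565.

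With TMM scaling, group means of miR-132 were higher at 24 h than at 4 h without passing the test, and lanes changed with time. Libraries overlapped: in insulin, 424 CPM at 24 h lay below 514 and 482 CPM at 4 h. For vehicle, 446 CPM at 24 h lay below 475 CPM at 4 h. By replicate number, the log2 CPM difference, 24 h minus 4 h, was 0.0005, 0.25 and 0.27 in vehicle. It was -0.27, 0.68 and 0.91 in insulin (replicates 1, 2 and 3). In vehicle, the log2 change from 4 h to 24 h was 0.18 (SE 0.21, adjusted p = 0.770 in edgeR, 0% of 195 called and 31 under 0.05 before adjustment). The number called there was 15 by DESeq2 and 0 by limma. The value was 0.01 with housekeeping scaling, 0.04 with scaling to positive controls, 0.35 with scaling to viral probes and 0.09 without vehicle 4 h replicate 3. In insulin, the change was 0.51 (SE 0.21, interval 0.07 to 0.95; unadjusted p = 0.0250, adjusted p = 0.168 in edgeR), where 3.59% of the 195 were called (7, against 21 by DESeq2 and 0 by limma). The negative control mean on the miRNA scale was also 0.25 higher at 24 h than at 4 h in insulin (difference of log2 means). Scaled to the negative controls, the change of miR-132 was 0.30 (SE 0.21, adjusted p = 0.562 in edgeR), and with their mean subtracted 0.72 (SE 0.36, adjusted p = 0.278 in edgeR). Their part in the result was not tested. Without insulin 24 h replicate 1 miR-132 passed the test, at 0.71 (SE 0.16, adjusted p = 0.0145 in edgeR; 0.0145 to 0.707 over all alternatives), and with housekeeping scaling the value was -0.11 (SE 0.22).

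Averaged over both treatments, the change from 4 h to 24 h was 0.34 (SE 0.15, adjusted p = 0.134 in edgeR), where 15.4% of the 195 were called. Without insulin 24 h replicate 1 it was 0.44 (adjusted p = 0.0116 in edgeR; 0.0116 to 0.805 over all alternatives). The exact permutation test of time within each treatment, two-sided, gave a mean difference of 0.31 in log2 CPM with p = 0.105. With housekeeping scaling the fitted value was -0.05 (SE 0.16). Blood markers summed to lower levels at 24 h: their summed level was 1474 to 5520 CPM in vehicle and 2167 to 3849 CPM in insulin at 4 h, against 940 to 1473 and 899 to 1396 CPM at 24 h. Of these 6 markers, 5 were above the threshold in 0 libraries, among them miR-142-3p, miR-150 and miR-451, and the sixth was miR-223. Mesenchymal markers summed to 5890 to 7764 CPM in vehicle and 6090 to 7717 CPM in insulin at 4 h, and to 5428 to 5652 and 4682 to 6007 CPM at 24 h, with 2 of 5 (miR-143 and miR-145) above the threshold. Their part in the time comparison was not tested.

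Across the 12 libraries, 5 measures were set against log2 CPM of miR-132: the negative control mean, the housekeeping mean, the summed viral probes, the total miRNA count and miR-212. Except for the total, they share the TMM scaling with miR-132, which can itself raise r and which the permutations do not take into account. The total is not scaled itself, but the scaling of miR-132 rests on library totals, so its r is not free of the scaling either. The permutations also ignored the groups, so their p values do not separate a relation from differences between groups. The housekeeping mean had the largest Pearson r, 0.85 (permutation p = 0.00165, adjusted p = 0.00825 over the 5), with Spearman rho 0.64 (permutation p = 0.0310, adjusted p = 0.155). Within 4 h the Pearson r was 0.62 (exact permutation p = 0.199, n = 6) and within 24 h it was 0.83 (exact permutation p = 0.0319, n = 6). The 2 libraries farthest from the median housekeeping level were insulin 24 h replicates 2 and 3, and without them r was 0.41 over 10 libraries, so its size rests in part on that pair. Of the single mRNAs, Gapdh had an r of 0.83 over 12 libraries and 0.52 without that pair. The r of Rpl19 fell from 0.66 to 0.12, that of B2m from 0.62 to 0.28 and that of Actb from 0.56 to 0.10.

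The other measures had smaller r values. For the negative control mean r was 0.55 and rho 0.46 (permutation p = 0.0559 and 0.134, adjusted p = 0.103 and 0.185). It was 0.58 without the 2 farthest libraries, 0.54 within 4 h (exact permutation p = 0.190, n = 6) and 0.47 within 24 h (exact permutation p = 0.401, n = 6). For the viral probes r was 0.47 and rho 0.45 (permutation p = 0.120 and 0.146, adjusted p = 0.120 and 0.185), with r of 0.35 without the 2 farthest libraries, 0.52 within 4 h (exact permutation p = 0.218, n = 6) and 0.65 within 24 h (exact permutation p = 0.158, n = 6). For the total count r was 0.56 and rho 0.41 (permutation p = 0.0621 and 0.185, adjusted p = 0.103 and 0.185), and r was 0.25 without the 2 farthest libraries, -0.39 within 4 h (exact permutation p = 0.425, n = 6) and 0.64 within 24 h (exact permutation p = 0.194, n = 6).

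The Pearson r of miR-212 with miR-132 was -0.49 and rho -0.45 (permutation p = 0.109 and 0.149, adjusted p = 0.120 and 0.185). It was -0.47 without the 2 farthest libraries, 0.16 within 4 h (exact permutation p = 0.789, n = 6) and -0.65 within 24 h (exact permutation p = 0.124, n = 6). In the libraries with the 2 highest miR-132 counts, 219 and 160, miR-212 stood at 16 and 15 counts. All miR-212 values were below the negative control mean, so they carry no level that could be compared.

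**Figure D4:**
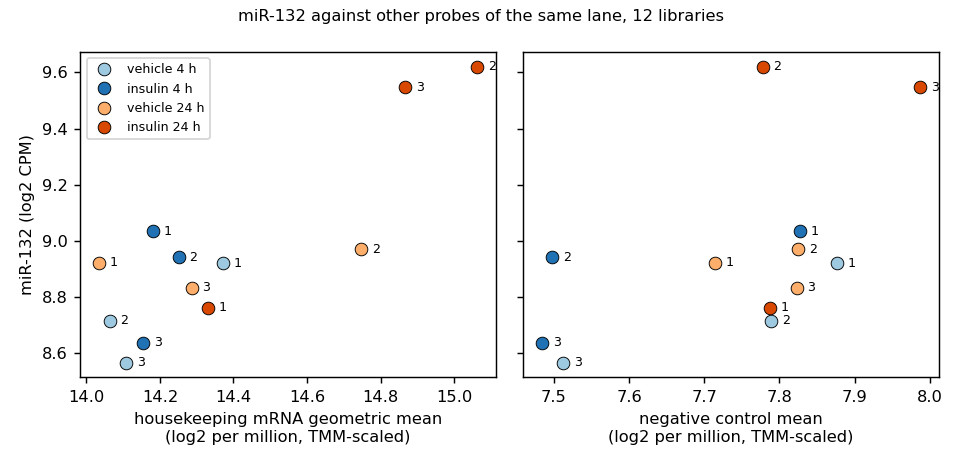
Log2 CPM of miR-132 against the housekeeping mRNA geometric mean (left) and the negative control mean (right), both as log2 CPM on the same TMM scale, for 12 libraries coloured by group and numbered by replicate. Insulin 24 h replicates 2 and 3 are high on both axes of the left panel; r is 0.85 with them and 0.41 without them.

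The miRNAs whose pattern was most like that of miR-132 were taken as the 5 with the highest Pearson r of log2 CPM over the 12 libraries, as a description. They were miR-20a+miR-20b, a probe that reads 2 miRNAs of the proliferation-linked miR-17-92 and miR-106a-363 clusters together (r = 0.82), miR-30d (r = 0.80), miR-714 (r = 0.77), the muscle miRNA miR-206 (r = 0.72) and miR-155, an immune-response miRNA (r = 0.69). Without insulin 24 h replicates 2 and 3, over 10 libraries, these r values were 0.31, 0.04, 0.54, 0.29 and 0.56. Of the 5, miR-714 and miR-206 passed the threshold in only 5 of 12 libraries each, so much of their pattern lies near background. The probe miR-20a+miR-20b, well above background, was at 6034 ± 458 CPM (SD, n = 3) in vehicle and 5901 ± 62.2 CPM in insulin at 4 h, and at 8240 ± 1190 and 11673 ± 3525 CPM at 24 h. As with miR-132, the spread was widest in insulin at 24 h. The level of miR-30d was 1285 ± 76.5 CPM in vehicle and 1352 ± 117 CPM in insulin at 4 h, and 1452 ± 170 and 1810 ± 590 CPM at 24 h. The fitted 24 h responses, on the log2 scale, were 0.50 (SE 0.21) for miR-20a+miR-20b and 0.33 (SE 0.21) for miR-30d. They were 0.24 (SE 0.24) for miR-714, 0.23 (SE 0.25) for miR-206 and 0.13 (SE 0.15) for miR-155. Each had an adjusted p of 0.962 in edgeR. These miRNAs were picked by r with miR-132 over the same libraries, so responses in its direction are in part built in.

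Other miRNAs reported to respond to neuronal activity or stimuli give the setting of these values. A list of 25 such names matched 26 probes, of which 13 met the count filter and 11 were above the threshold in 0 libraries. The list also holds miR-155, named above. The undetected members included miR-134, which limits dendritic spine size, miR-138 and miR-219. At 4 h, 4 of 13 lay above 0 with a median of -0.05, against 99 of 195 and a median of 0.01 over all miRNAs tested. The largest values were 0.30 (SE 0.17) for miR-26a and 0.29 (SE 0.36) for miR-29b, and the smallest -0.26 (SE 0.16) for miR-181a and -0.23 (SE 0.28) for miR-485. At 24 h, 9 of 13 lay above 0 with a median of 0.06, against 127 of 195 and a median of 0.06 over all. The largest were 0.15 (SE 0.27) for miR-485 and 0.13 (SE 0.19) for miR-128, both below the 0.49 of miR-132, and the smallest -0.15 (SE 0.16) for miR-96 and -0.09 (SE 0.18) for miR-26a. None of the 13 passed in either direction at 4 h, at 24 h, in the difference or in the mean of both times, with 0% of the 195 called in each. With housekeeping scaling 0 of 13 lay above 0 at 24 h, where 11 of 195 did.

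Averaged over both treatments, 4 of 13 were called, against 15.4% of all 195 (19 higher and 11 lower). Of the list, 1 was called higher at 24 h, miR-29b at 1.25 (SE 0.26, adjusted p = 0.00726 in edgeR), and 3 were called lower: miR-26a at -0.71 (SE 0.12), miR-96 at -0.44 (SE 0.11) and miR-183 at -0.42 (SE 0.12). The latter pair comes from 1 cluster known from sensory cells. In insulin 1 of 13 was called, against 3.59% of all 195: miR-26a at -0.91 (SE 0.18, adjusted p = 0.0254 in edgeR). In vehicle 0 of 13 and 0% of all were called. With scaling to the 100 most abundant probes, 3 of 13 were called in insulin, 2 in vehicle and 6 over both treatments. Of all 195 miRNAs, 15, 9 and 32 were called in these comparisons under that scaling. The list's median was -0.08 averaged over both treatments, against 0.04 over all 195, while miR-132 stood at 0.34.

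**Figure D5:**
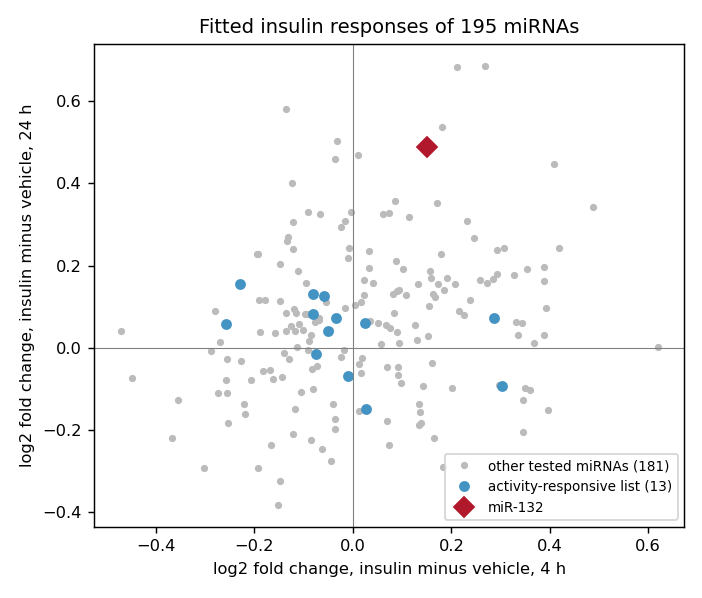
Fitted log2 fold change of insulin over vehicle at 4 h (x axis) and 24 h (y axis) for 195 miRNAs, with the 13 tested members of the activity-responsive list in blue and miR-132 as a red diamond. In this fit miR-132 lies at 0.15 and 0.49, above the 13 list members at 24 h, whose highest value is 0.15.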

How the data were processed

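MiRNAs were measured in 12 libraries of mHypoE-46 cells. Per the file headers, the deposited expected counts are raw barcode counts of 620 probes, scanned in 1 lane a sample. The unit is named so because header values in these columns are not whole. Every probe value is whole, so rounding changed nothing. The design had assumed counts, and the count test was kept. The authors also deposited a signal table, in which each mouse miRNA and housekeeping signal is the raw count times 1 factor per lane. Its software and the counting software are not given in the sources used here.

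The miRNAs tested were those past the threshold (mean of the negative controls plus 2 SD) in 3 or more libraries, which kept 195. In edgeR 4.0.16 (R 4.3.3), counts were scaled by TMM and all 4 groups entered 1 quasi-likelihood fit, tested by F test (8 residual and 6.77 prior degrees of freedom). Benjamini-Hochberg adjustment ran over the 195, called under 0.05. Single values were tested by exact permutation, and correlations over 12 libraries with 100000 permutations. Log2 CPM used a prior count of 2. Alternatives used DESeq2 1.42.0, limma 3.58.1 on log2 of the authors' signals, other scalings, filters and background subtraction, and each library left out. The viral and negative control scalings were chosen after the data were seen. The pipeline was tested on simulated data.

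The members and lists were chosen with earlier results of these data known. The named miRNAs are the 2 members, the 5 most like miR-132 in Pearson r, and of the activity-responsive list the called members or the 2 largest and 2 smallest values per insulin comparison. In addition, undetected members of that list were named after their values were seen. Lists of neuronal, blood, muscle and liver, epithelial and mesenchymal markers had 4 of 7, 1 of 6, 2 of 4, 2 of 5 and 2 of 5 probes tested. Vehicle and insulin libraries of the same replicate number deviated together at 24 h (r of 0.59, 0.50 and 0.31 across miRNAs). They did not in every pair at 4 h (0.49, -0.30 and 0.74), nor across times (-0.35 to 0.21). Pairs of unlike number were not compared. The titles give vehicle and insulin libraries the same replicate numbers, but a pairing of the treatments at 24 h was not settled. Libraries of the same number at 24 h also sat in adjacent lanes (7 and 8, 9 and 10, 11 and 12). The part of the lanes in these r values was not tested. Low counts limit the precision of both members.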

Additional observations from a re-analysis of the deposited data

How the results depend on the processing

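Across 24 or 25 alternatives per comparison, miR-132 kept its direction and its failure to pass the test in the insulin comparisons at 4 h, at 24 h and in their mean. With scaling to housekeeping mRNAs the difference of responses was -0.12, the change from 4 h to 24 h in insulin -0.11 and that over both treatments -0.049 (-0.053 in the permutation test), each reversed; that scaling lowers all miRNAs in libraries with high housekeeping counts. With each library left out, the change over time in insulin ran from 0.36 to 0.71 and that over both treatments from 0.27 to 0.44, the higher value of each passing the test without insulin 24 h replicate 1. The 24 h response ran from 0.34 to 0.69 and the 4 h response from 0.07 to 0.28. With the replicate block, the 24 h response was 0.48 (adjusted p = 0.982 in edgeR) and no call of miR-132 changed. That block gives each replicate number 1 effect shared by both times. A block within each time was not fitted, so a pairing at 24 h alone was not taken into account. The block moved the number of miRNAs called over time from 0 to 10 in vehicle and from 7 to 18 in insulin. Over all alternatives those numbers ran from 0 to 15 and from 0 to 22, and over both treatments from 3 to 52 (30 as reported); the cause was not tested. At 3 SD miR-132 exceeded the threshold in 6 libraries in place of 10, and miR-212 in 0 at each threshold. Low counts limit precision throughout.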
